A study of Bos taurus with 29 samples.

Results

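STAR, FDX1 and HSD3B1 are 3 genes of the pathway that turns cholesterol into steroid hormones, and their messenger RNA is described here in single cattle oocytes. They are 3 of the 13502 genes in the table, chosen by their measured levels in the 3 groups of these same oocytes, so those levels are given as a description and nothing was tested with them. STAR and FDX1 passed the filter on low values (at least 1 CPM in at least 6 libraries, where CPM is a gene's reads scaled to a common library total), which 11852 genes passed. HSD3B1 did not pass it. In the RefSeq cattle annotation they carry the gene numbers 281507 (STAR), 281157 (FDX1) and 281824 (HSD3B1), and all 3 code for proteins.

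The study asked how an extra culture step with C-type natriuretic peptide (CNP) before maturation affects cattle oocytes. Cumulus-oocyte complexes, in which the egg is still wrapped in its follicle cells, were drawn from FSH-stimulated donor cattle. Germinal vesicle (GV) oocytes, arrested before meiosis resumes, were stripped of those cells at collection (7 oocytes). IVM oocytes were stripped after 22 h in maturation medium holding 50 ng/mL EGF and 5 µg/mL FSH (8 oocytes). CNP_IVM oocytes spent 6 h with 200 nM CNP in the same medium without EGF and then 22 h in maturation medium, 28 h in all (7 oocytes). The genotype label is WT throughout, and matured oocytes were taken as metaphase II from the polar body. CNP, the absence of EGF during the first hours and the longer culture cannot be told apart in the CNP_IVM group. No label names the donor or the culture of an oocyte, and 1 animal may have given several of them. Each group was therefore counted as 1 sample, and no p-value is given. Every ± is the SD between the oocytes measured.

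In steroid-making cells, STAR carries cholesterol from the outer to the inner mitochondrial membrane, the step that limits the rate of acute hormone synthesis. There CYP11A1 cuts the side chain of cholesterol to give pregnenolone, using electrons that ferredoxin reductase (FDXR) takes from NADPH and ferredoxin 1 (FDX1) hands on. HSD3B1 then converts pregnenolone to progesterone. In the ovarian follicle this chemistry is the work of theca and granulosa cells. Ferredoxins also serve outside steroid synthesis: FDX1 takes part in attaching lipoic acid to mitochondrial enzymes, and FDX2 feeds electrons to the assembly of iron-sulfur clusters.

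Library totals lay between 20159662 and 39340040 reads, the smallest being IVM replicate 7, and 97.1 to 97.6% of the reads fell in listed genes. The oocyte label fitted its markers. The sum over 14 oocyte markers, all with reads in every group, was 25328 to 28877 CPM in GV, 29004 to 51156 CPM in IVM and 43624 to 64483 CPM in CNP_IVM oocytes. BTG4, a gene of messenger RNA decay, made up much of it (means of 9807, 19952 and 32075 CPM). The markers differed in direction: 6 were at least 2-fold higher and 4 lower in IVM than in GV, and 4 higher and 7 lower in CNP_IVM than in GV. Over all genes 15.9% were higher and 33.0% lower in IVM, and 15.3% and 42.0% in CNP_IVM. Without GV replicate 9 the marker pairs were 3 and 4, and 4 and 6. ZP3 (-2.24 and -4.14) and FIGLA (-4.44 and -5.65) were among the lower. Of 32 granulosa and cumulus markers 25 had a row, and their summed level was 109 to 621 CPM in GV, 219 to 331 CPM in IVM and 181 to 259 CPM in CNP_IVM oocytes. HAS2, a hyaluronan synthase, took a growing share of that sum (means of 16.3, 77.1 and 118 CPM). The filter left 19 such markers. Against GV, IVM oocytes had 3 of them at least 2-fold higher and 8 lower (INHA -3.28, CD44 -2.53). CNP_IVM oocytes had 2 higher and 9 lower (INHA -3.62, CD44 -3.07). Over all genes 15.9% and 33.0%, and 15.3% and 42.0%, were higher and lower. The sum thus hides markers of both directions. Without GV replicate 9 the pairs were 5 and 6, and 2 and 8, and with quantile normalisation 3 and 5, and 3 and 6. INHA ranges overlapped between groups, with GV replicates 6 (59.7 CPM) and 9 (42.8 CPM) highest. Without GV replicate 6 its differences were -2.44 and -2.78. Of 15 theca and stroma markers 5 had a row, and their sum was 12.9 to 42.5 CPM in GV, 19.9 to 45.9 CPM in IVM and 21.4 to 38.8 CPM in CNP_IVM oocytes. This sum too hides both directions. Of the 4 past the filter, 1 was at least 2-fold higher and 1 lower in IVM than in GV. In CNP_IVM against GV 1 was higher and 2 were lower. NR2F2 was the higher one (1.59 and 2.14). The shares over all genes are those given above. With quantile normalisation 0 were lower in either. Of 14 blood, immune and endothelial markers 7 had a row, and their sum was 267 to 513 CPM in GV, 14.8 to 58.3 CPM in IVM and 10.3 to 34.6 CPM in CNP_IVM oocytes. The 3 past the filter, VWF (-3.35 and -4.21), KDR (-3.52 and -3.80) and CD3E (-2.74 and -3.74), were lower in every matured oocyte than in any GV oocyte, as was STAR. Over all genes 19.9% were lower than GV with no overlap in IVM and 28.0% in CNP_IVM. PECAM1, CD68, HBA and HBA1 did not pass the filter and differed from GV by less than 2-fold. The part of these markers in the results was not tested. GV replicate 9 stood apart: its treatment label reads in vitro maturation while its title reads GV, and it had 9381 genes at 1 CPM or more against 11311 to 11798 in the other 6 GV oocytes. Results that rest on it are given with and without it. Because libraries were primed on poly(A) and a level is relative to all other reads, the amount of a transcript, its poly(A) tail and changes in other transcripts cannot be told apart.

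STAR messenger RNA was lower in each successive group. In GV oocytes its lowest level was 547 CPM (replicate 1), the median 629 CPM and the highest 844 CPM (replicate 3). After conventional maturation it ran from 175 CPM (replicate 7) through a median of 326 CPM to 452 CPM (replicate 9). In CNP_IVM oocytes it ran from 78.6 CPM (replicate 4) through a median of 90.8 CPM to 117 CPM (replicate 5). No group overlapped another: the lowest GV oocyte lay above every IVM oocyte, and the lowest IVM oocyte above every CNP_IVM oocyte. Group means were 657 ± 104 CPM in GV (SD, n = 7), 316 ± 92.4 CPM in IVM (n = 8) and 93.9 ± 12.99 CPM in CNP_IVM (n = 7). Relative to its mean the spread between oocytes was largest after IVM, with a coefficient of variation of 29.2% against 15.8% in GV and 13.8% in CNP_IVM. That order depended on the scaling: with trimmed-mean factors it was 12.95% in IVM, 15.5% in GV and 9.80% in CNP_IVM. Counting error was small beside that spread, since even the oocyte with the fewest STAR reads had 2890. Pooled over oocytes, the exact 95% Poisson intervals, which cover counting error only, were 656 to 663 CPM in GV, 326 to 330.3 CPM in IVM and 92.5 to 94.8 CPM in CNP_IVM. Pooling weighs each oocyte by its library total, unlike the means above, so the IVM interval does not hold the mean of 316 CPM.

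**Figure D1:**
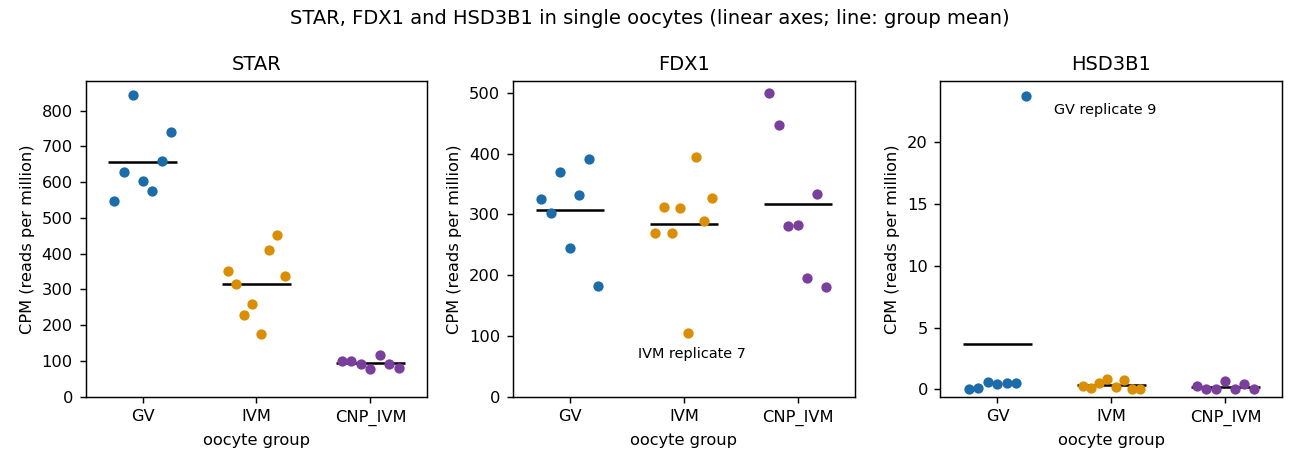
Level of STAR, FDX1 and HSD3B1 in CPM on linear axes, 1 point per oocyte in replicate order, with the group mean as a line (7 GV, 8 IVM, 7 CNP_IVM). The STAR ranges do not overlap, the FDX1 ranges do, and HSD3B1 is under 1 CPM in every oocyte but GV replicate 9, at 23.8 CPM.

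On the log2 scale used here, the difference of group means after adding 1 CPM to each, STAR differed by -1.05 between IVM and GV oocytes. The difference was -2.79 between CNP_IVM and GV and -1.74 between CNP_IVM and IVM. The first and second of these share the GV oocytes. As folds, STAR was 2.07-fold lower in IVM than in GV, 6.93-fold lower in CNP_IVM than in GV and 3.34-fold lower in CNP_IVM than in IVM. Of the 2 members past the filter, STAR was at least 2-fold lower in IVM than in GV, as were 33.0% of all genes, and 19.9% of all genes were lower there with no overlap. Against GV, CNP_IVM oocytes were at least 2-fold lower in 42.0% of genes and lower with no overlap in 28.0%. Between CNP_IVM and IVM these shares were 14.8% and 2.60%. STAR met all of these marks, and since it was chosen for this pattern the shares serve as background only. A stepwise order, GV above IVM above CNP_IVM with no overlap at either step, was found for 85 genes (0.717%).

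The size of the first step depended on the scaling. All genes together had a median difference of -0.28 for IVM against GV, -0.61 for CNP_IVM against GV and -0.28 for CNP_IVM against IVM, and relative to these medians STAR stood at -0.77, -2.18 and -1.46. After scaling by trimmed-mean factors, the STAR difference for IVM against GV was -0.77, under 2-fold, and after quantile normalisation it was -1.17. It also came to under 2-fold with group medians in place of means (-0.95), and without GV replicate 3 (-0.98), IVM replicate 5 (-0.996) or IVM replicate 7 (-0.96). The ranges stayed apart after trimmed-mean scaling, at 434 to 671 CPM in GV, 231 to 360 CPM in IVM and 105 to 138 CPM in CNP_IVM. Without GV replicate 9, whose STAR level of 740.4 CPM lay inside the GV range, the differences from GV were -1.02 for IVM and -2.76 for CNP_IVM.

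STAR belongs to the START family of lipid carriers, of which 7 of 15 listed members passed the filter. Another carrier, STARD10, which moves phospholipids, averaged 57.3 CPM in GV oocytes (32.2 to 85.1), 2.94 CPM in IVM (0.397 to 8.21) and 1.03 CPM in CNP_IVM (0 to 2.59). Its ranges in both matured groups lay below GV, with differences of -3.89 and -4.85. The ceramide carrier CERT1 ran the other way, at 14.8 CPM in GV (11.9 to 19.7), 33.3 CPM in IVM (25.1 to 47.8) and 46.4 CPM in CNP_IVM (25.4 to 61.6). Both matured groups lay above every GV oocyte, by 1.12 and 1.59. In the family as a whole, 1 gene was at least 2-fold higher and 2 were at least 2-fold lower in IVM than in GV, and the counts were the same for CNP_IVM against GV (15.9% higher and 33.0% lower over all genes in the former, 15.3% and 42.0% in the latter). With trimmed-mean factors the former was 1 and 1, and with quantile normalisation the latter was 3 and 2. Between CNP_IVM and IVM, STAR was the only one of the 7 at least 2-fold apart, and 1 more was so without IVM replicate 3, 5, 6 or 7 or CNP_IVM replicate 1 or 2. Over all genes 83.3% were under 2-fold there. The late endosomal cholesterol carrier STARD3 was at 0.402 CPM in GV and 0.561 CPM in IVM, and had 0 reads in all 7 CNP_IVM oocytes, where 3 reads would have been 0.0767 to 0.0861 CPM.

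Before STAR can act, cholesterol has to reach the mitochondrion. Of 18 genes listed for that delivery, 14 passed the filter, with median differences of 0.27, 0.072 and 0.043 in the order IVM against GV, CNP_IVM against GV and CNP_IVM against IVM. The medians over all genes were -0.28, -0.61 and -0.28. Higher and lower by at least 2-fold were 1 and 2, 2 and 2, and 0 and 1. Over all genes 15.9% and 33.0%, 15.3% and 42.0%, and 1.86% and 14.8% were higher and lower. For the delivery list, trimmed-mean factors gave 3 and 1, 5 and 2, and 0 and 1. Quantile normalisation gave 4 and 0, 5 and 0, and 0 and 1. Without GV replicate 9 the pairs of this list against GV were 1 and 0, and 2 and 1. VDAC1, a channel of the outer mitochondrial membrane, averaged 178 CPM in GV (161 to 192), 491 CPM in IVM (367 to 641) and 531 CPM in CNP_IVM (337 to 747). It was higher than GV in every matured oocyte, by 1.46 and 1.57. Its paralog VDAC2 ran the other way, at 66.5 CPM in GV (50.7 to 86.3), 32.3 CPM in IVM (23.5 to 47.9) and 32.9 CPM in CNP_IVM (21.1 to 43.7), lower than GV in every matured oocyte by 1.02 and 0.99. With trimmed-mean factors the VDAC2 differences were -0.66 and -0.38. TSPO, a cholesterol-binding protein of the same membrane, was at 2.27 ± 1.41 CPM in GV, 4.55 ± 3.23 CPM in IVM and 3.84 ± 1.95 CPM in CNP_IVM, with overlapping ranges. LIPE, which frees cholesterol from its esters, was lower by 2.00 in CNP_IVM than in GV and by 1.83 than in IVM, and the former came to under 2-fold after quantile normalisation (-0.93). STARD3NL, a relative of STARD3 that ties endosomes to other membranes, was higher in CNP_IVM than in GV by 1.18. Cholesterol synthesis, a list of 24 genes that all passed the filter, had 4 genes at least 2-fold higher and 9 lower in IVM than in GV, 2 higher and 12 lower in CNP_IVM than in GV, and 0 higher and 3 lower in CNP_IVM than in IVM. Over all genes 15.9% were higher and 33.0% lower in the first comparison, 15.3% and 42.0% in the second, and 1.86% and 14.8% in the third. The counts of lower synthesis genes thus lie near the background. The second pair of this list became 6 and 8 with trimmed-mean factors and 7 and 8 with quantile normalisation. MVK, an early kinase of that pathway, differed from GV by -3.24 in IVM and -4.80 in CNP_IVM, and FDPS, which builds the isoprenoid farnesyl unit, by -3.12 and -3.35.

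FDX1 stayed at like levels in all 3 groups. Its lowest GV oocyte was replicate 9 at 181 CPM, the median was 326 CPM and the highest 390.2 CPM (replicate 7). IVM oocytes ran from 104 CPM (replicate 7) through a median of 300.2 CPM to 395 CPM (replicate 8). CNP_IVM oocytes ran from 181 CPM (replicate 7) through 283 CPM to 499 CPM (replicate 1). The 3 ranges overlapped almost entirely, and IVM replicate 7, the library with the fewest reads, lay below all other oocytes. Means were 307 ± 72.5 CPM in GV (SD, n = 7), 285 ± 83.1 CPM in IVM (n = 8) and 317 ± 120 CPM in CNP_IVM (n = 7). The log2 differences were -0.11 (IVM against GV), 0.047 (CNP_IVM against GV) and 0.15 (CNP_IVM against IVM), each far inside the spread between oocytes. FDX1 was under 2-fold in all 3 comparisons, as were 51.1%, 42.7% and 83.3% of genes in that order, and 206 genes (1.74%) lay within 0.2 of 0 in all 3.

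No direction can be read for FDX1. After trimmed-mean scaling the differences were 0.20, 0.64 and 0.44, so the sign for IVM against GV turned. Without GV replicate 9 they were -0.20 for IVM and -0.048 for CNP_IVM against GV, so the latter turned too. Relative to the median of all genes, FDX1 stood at 0.18, 0.66 and 0.44.

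FDXR, the other electron carrier of the chain, and the related ferredoxin FDX2 were lower after maturation. FDX2, the paralog that serves iron-sulfur cluster assembly, ran from 239 CPM through a median of 263 CPM to 548 CPM in GV oocytes, the highest being replicate 9. It ran from 27.05 CPM through 70.6 CPM to 87.0 CPM in IVM and from 40.1 CPM through 90.5 CPM to 166 CPM in CNP_IVM. Every matured oocyte lay below every GV oocyte, and the matured groups overlapped each other. The differences were -2.32 for IVM and -1.66 for CNP_IVM against GV, and 0.66 for CNP_IVM against IVM. Both stayed past 2-fold when any one oocyte was left out (-2.41 to -2.13 for IVM and -1.84 to -1.47 for CNP_IVM) and after trimmed-mean scaling (-2.04 and -1.08), although under that scaling the CNP_IVM and GV ranges overlapped.

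FDXR, the reductase that loads the ferredoxins, ran from 6.01 CPM through 13.1 CPM to 33.2 CPM in GV oocytes, replicate 9 again being highest. In IVM it ran from 0 through 0.0877 to 1.47 CPM (replicate 8), and in CNP_IVM from 0 through 0 to 0.263 CPM. It was at 0 in 2 of 8 IVM and 4 of 7 CNP_IVM oocytes, where a count of 0 allows at most 3 reads (0.0763 to 0.149 CPM over all libraries). All matured oocytes lay below all GV oocytes, by 3.66 and 3.96 on the log2 scale, a size that the 1 CPM added to each mean holds down. Leaving out single oocytes gave -3.86 to -3.38 and -4.09 to -3.68. The electron-transfer list holds only FDX1, FDX2 and FDXR, so its counts repeat the values above. It had 2 of 3 genes at least 2-fold lower than GV in each matured group, as were 33.0% of all genes in IVM and 42.0% in CNP_IVM. Between CNP_IVM and IVM 0 of 3 were past 2-fold, and 83.3% of all genes were under it.

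**Figure D2:**
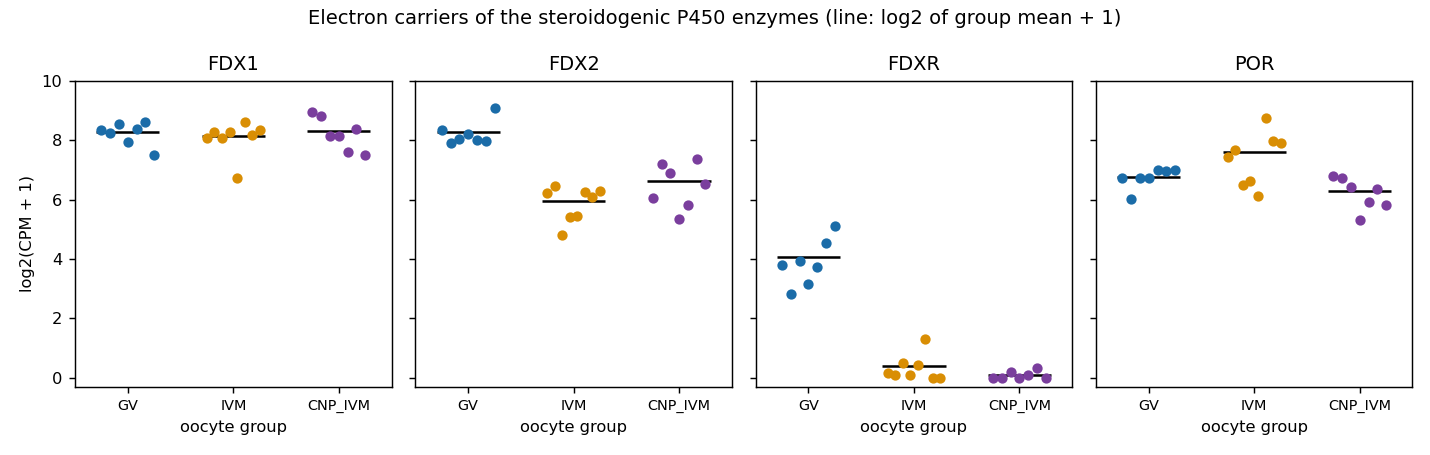
log2(CPM + 1) of FDX1, FDX2, FDXR and POR, 1 point per oocyte, with a line at the log2 of the group mean plus 1. FDX1 lies level across the groups, FDX2 and FDXR are lower in every matured oocyte than in any GV oocyte, and POR reaches 426 CPM in IVM replicate 8.

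Ratios within an oocyte do not change when its library is scaled by a single factor. The ratio of FDX2 to FDX1 was 0.650 to 3.02 in GV oocytes (median 0.792), 0.1001 to 0.406 in IVM (median 0.234) and 0.132 to 0.5002 in CNP_IVM (median 0.33). GV replicate 9 held the top value, and the next highest GV oocyte was at 1.20. Every GV oocyte lay above every matured oocyte. STAR to FDX1 was 1.68 to 4.08 in GV (median 2.08), 0.831 to 1.68 in IVM (median 1.03) and 0.200 to 0.596 in CNP_IVM (median 0.278). The CNP_IVM range lay below both others. GV and IVM met at their edges, because IVM replicate 7, low in both genes, had a ratio just above that of GV replicate 1. STAR against ZP2, an oocyte-coat gene, was 0.153 to 0.357 in GV, 0.0406 to 0.139 in IVM and 0.0193 to 0.038 in CNP_IVM, with no overlap between groups. ZP2 was itself level, with differences of 0.14, -0.0073 and -0.14, so this ratio follows STAR. The coat genes ZP4 (-0.94, -2.76 and -1.82) and ZP3 (-2.24, -4.14 and -1.90) were lower, much as STAR was or more. Ratios to them were not taken, and the result holds for ZP2 only.

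HSD3B1, which makes progesterone from pregnenolone, was close to 0 in all oocytes except 1. In GV replicates 1, 2, 3, 4, 6 and 7 it had 1, 2, 19, 12, 16 and 19 reads, or 0.0327 to 0.614 CPM. GV replicate 9 had 872 reads, or 23.8 CPM. IVM oocytes ran from 0 through a median of 0.246 to 0.81 CPM, with 0 reads in 1 of 8. CNP_IVM oocytes ran from 0 through 0 to 0.693 CPM, with 0 reads in 4 of 7. Group means were 3.71 ± 8.85 CPM in GV (SD, n = 7), 0.354 ± 0.321 CPM in IVM (n = 8) and 0.201 ± 0.279 CPM in CNP_IVM (n = 7), and the ranges of all groups overlapped. The log2 differences of -1.80 for IVM against GV and -1.97 for CNP_IVM against GV rested on 1 oocyte. Without GV replicate 9 they were -0.0093 and -0.18. Between CNP_IVM and IVM the difference was -0.17.

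GV replicate 9 also had other genes of follicle cells at raised levels. KRT8, a keratin, was at 74.4 CPM against 1.19 to 2.04 CPM in the other 6 GV oocytes. PGR, the progesterone receptor, was at 38.3 against 0.0646 to 0.688 CPM. SERPINE2, a protease inhibitor, was at 185 against 23.1 to 74.9 CPM, and PTGS2, the prostaglandin synthase induced in cumulus cells, at 44.2 against 5.47 to 14.3 CPM. Markers of follicle cells did not all point the same way, since CYP11A1, NR5A1 and GATA4 had 0 reads in it and some in the other 6. Those levels were low, at 0.117 to 1.47, 0.175 to 1.00 and 0.797 to 4.34 CPM. FSHR had 0 reads in it too, but its lowest level in the other 6 was also 0. Of the 25 granulosa and cumulus markers with a row, it was the highest GV oocyte for 10, the lowest for 6 and in between for 9. Over all genes past the filter it was highest for 33.3% and lowest for 46.4%. Its granulosa and cumulus sum without HSD3B1 was 597 CPM against 108 to 341 CPM in the others. It was highest as well for the lipid carrier STARD7 (39.1 against 0.0323 to 0.375 CPM). The part of other cells in this library was not tested.

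**Figure D3:**
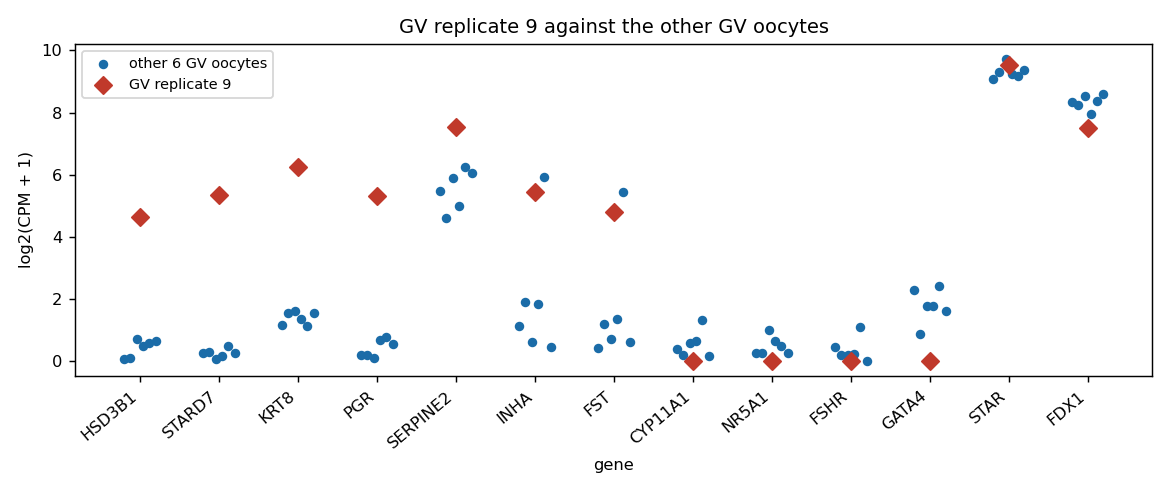
log2(CPM + 1) of 13 genes in the 7 GV oocytes, replicate 9 as a red diamond and the other 6 as blue points. Replicate 9 stands above the others for HSD3B1, STARD7, KRT8, PGR and SERPINE2, lies at 0 for CYP11A1, NR5A1, FSHR and GATA4, inside the others for STAR and below them for FDX1.

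The enzyme between STAR and HSD3B1 was barely detected. CYP11A1 averaged 0.435 CPM in GV, 0.35 CPM in IVM and 0.184 CPM in CNP_IVM, with 0 reads in 1, 3 and 5 oocytes in that order, and its highest value in any oocyte was 1.58 CPM (IVM replicate 8). CYP17A1, CYP11B1, CYP21A2, HSD3B2, HSD17B1 and LHCGR had no row and were not analysed here. CYP19A1, the aromatase that makes oestrogens, averaged 4.69 ± 1.31 CPM in GV, 2.93 ± 2.27 CPM in IVM and 0.863 ± 0.839 CPM in CNP_IVM. It differed by -1.61 between CNP_IVM and GV, which became -0.62 after quantile normalisation. POR, the reductase that feeds CYP19A1 and other microsomal P450 enzymes, was at 64.3 to 127 CPM in GV, 69.4 to 426 CPM in IVM and 39.2 to 109 CPM in CNP_IVM. It was 2.51-fold lower in CNP_IVM than in IVM (log2 -1.33), with overlapping ranges, and just under 2-fold after trimmed-mean scaling (-0.98). The list of P450 enzymes and partners had 7 genes past the filter. Among them 1 was at least 2-fold higher and 1 lower in IVM than in GV. In CNP_IVM against GV 1 was higher and 2 lower, and in CNP_IVM against IVM 0 were higher and 3 lower, where 1.86% and 14.8% of all genes were (15.9% and 33.0%, and 15.3% and 42.0%, in the comparisons with GV). With quantile normalisation the pairs against GV were 2 and 1, and 1 and 1. The last pair became 1 and 1 with trimmed-mean factors and 1 and 2 with quantile normalisation. CYB5R3, which reduces cytochrome b5, was the lower gene against GV in both (-1.70 and -3.35). PGRMC2, a heme-binding partner of P450 enzymes, was the higher one (1.00 and 1.86), and the first of these was under 2-fold without GV replicate 9 (0.84) and without IVM replicate 1, 6, 7, 8 or 9.

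Relatives of HSD3B1, the hydroxysteroid dehydrogenases and reductases, had 12 genes past the filter. In IVM against GV 3 of them were at least 2-fold higher and 3 lower. The counts were 1 and 7 in CNP_IVM against GV, and 0 and 4 in CNP_IVM against IVM. Over all genes 15.9%, 15.3% and 1.86% were higher and 33.0%, 42.0% and 14.8% lower in these comparisons. The counts for CNP_IVM became 2 and 6 against GV with trimmed-mean factors, and 3 and 4 against GV and 0 and 2 against IVM with quantile normalisation. The 3 higher against GV became 1 without GV replicate 2, 7 or 9 or IVM replicate 6 or 10, and the 1 higher in CNP_IVM became 0 without CNP_IVM replicate 5. HSD17B8, which acts on oestradiol and in mitochondrial fatty acid synthesis, had the same stepwise order as STAR. Its lowest, median and highest levels were 62.8, 71.8 and 92.5 CPM in GV, 3.64, 6.42 and 17.5 CPM in IVM and 0.89, 1.75 and 2.63 CPM in CNP_IVM, with no overlap and differences of -2.92, -4.78 and -1.86. HSD17B10, a mitochondrial dehydrogenase that is also part of mitochondrial RNase P, averaged 108 ± 22.2, 24.8 ± 8.70 and 13.05 ± 6.13 CPM. AKR1B1, an aldose reductase that in cattle also makes prostaglandin F2 alpha, averaged 3858 ± 906, 1467 ± 640.2 and 797 ± 195 CPM. HSD17B12, which elongates fatty acids, was higher in IVM (82.6 ± 11.6 CPM) than in GV (36.5 ± 8.96 CPM), by 1.16. NSDHL, a sterol dehydrogenase of cholesterol synthesis, was lower by 2.11 in CNP_IVM than in GV and by 1.39 than in IVM.

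Regulators of STAR and of other steroidogenic genes had 17 of 25 names past the filter. NR5A1, the nuclear receptor that drives steroidogenic genes in gonads and adrenals, averaged 0.352, 0.439 and 0.158 CPM in GV, IVM and CNP_IVM, and NR5A2, its relative, 6.15 ± 2.55, 3.23 ± 0.615 and 4.34 ± 1.86 CPM. FSHR, the FSH receptor of granulosa cells, averaged 0.275, 0.0864 and 0.0714 CPM. CREB1, which carries the cyclic AMP signal to genes, averaged 29.1 CPM in GV (22.5 to 32.2), 6.58 CPM in IVM (1.92 to 10.8) and 5.77 CPM in CNP_IVM (4.06 to 7.13), with both matured groups below GV. CEBPB averaged 22.3 CPM in GV (10.7 to 42.2), 7.03 CPM in IVM (0.298 to 17.8) and 0.75 CPM in CNP_IVM (0.205 to 1.87). PRKACB, a catalytic subunit of protein kinase A, averaged 14.4 CPM in GV and 40.6 and 42.7 CPM in the matured groups. LONP1, the mitochondrial protease that breaks down STAR protein, averaged 14.7 CPM in GV (1.34 to 26.3), 1.70 CPM in IVM (0.248 to 4.47) and 1.91 CPM in CNP_IVM (0.448 to 3.95). Its lowest GV oocyte was replicate 9, which lay within both matured ranges. Among the 17 regulators, 2 were higher and 3 lower by 2-fold in IVM than in GV, 1 and 6 in CNP_IVM than in GV, and 0 and 3 in CNP_IVM than in IVM. Over all genes 15.9% and 33.0%, 15.3% and 42.0%, and 1.86% and 14.8% were higher and lower. As deposited, the counts of lower regulators against GV did not exceed the shares over all genes. With trimmed-mean factors the pairs against GV were 5 and 3 for IVM and 3 and 4 for CNP_IVM. With quantile normalisation they were 4 and 3, and 3 and 3, so the balance of higher and lower regulators depended on the scaling. The first pair became 1 higher without GV replicate 2 or 4 or IVM replicate 1 or 10, and 5 lower without IVM replicate 8.

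Steroid receptors bind the products of the pathway, and 6 of 10 listed passed the filter. In IVM against GV 0 of these were at least 2-fold higher and 3 lower. The counts were 0 and 4 in CNP_IVM against GV, and 0 and 3 in CNP_IVM against IVM. Over all genes 15.9%, 15.3% and 1.86% were higher and 33.0%, 42.0% and 14.8% lower. For IVM against GV the counts were 1 higher and 1 lower without GV replicate 9, 0 and 1 with trimmed-mean factors and 0 and 0 with quantile normalisation. The oestrogen receptor ESR2 averaged 22.2 ± 7.39 CPM in GV, 10.5 ± 5.03 CPM in IVM and 2.55 ± 1.46 CPM in CNP_IVM. The lowest of 7 CNP_IVM oocytes had 0.159 CPM and the highest 4.65 CPM, below the lowest IVM oocyte at 5.66 CPM. The membrane progesterone receptors PAQR5 and PAQR7 averaged 22.5 and 46.2 CPM in GV, 8.85 and 28.8 CPM in IVM and 3.75 and 7.48 CPM in CNP_IVM.

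Over the 7 steroid lists together 66 of 105 names passed the filter. For IVM against GV 8 were at least 2-fold higher and 16 lower (15.9% and 33.0% of all genes), with a median of -0.19 against -0.28 for all genes. For CNP_IVM against GV the counts were 6 and 25 (15.3% and 42.0% of all genes), with a median of -0.40 against -0.61. For CNP_IVM against IVM they were 0 and 15 (1.86% and 14.8% of all genes), with a median of -0.33 against -0.28. After trimmed-mean scaling the counts became 14 and 12, 12 and 22, and 1 and 11, and after quantile normalisation 14 and 11, 15 and 15, and 2 and 10, so whether more genes were lower than higher in matured than in GV oocytes depended on the scaling. Over all genes, the share of called genes that were higher likewise moved from 32.4, 26.8 and 11.1% as deposited to 45.7, 44.4 and 31.6% with trimmed-mean factors and 52.3, 52.6 and 39.7% with quantile normalisation. Without GV replicate 9 the counts against GV were 6 and 12 for IVM and 6 and 23 for CNP_IVM, and the 8 higher in IVM became 5 without GV replicate 2 or IVM replicate 1, 6 or 10.

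**Figure D4:**
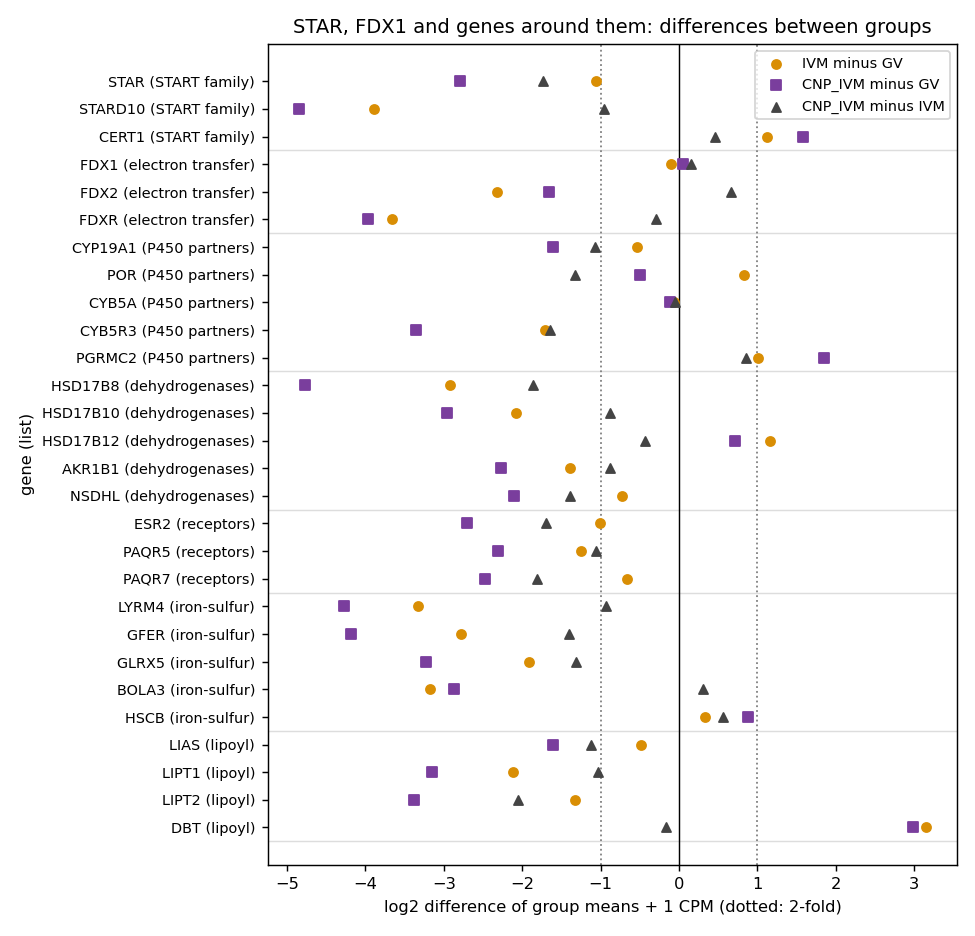
log2 difference of group means (each plus 1 CPM) for 28 genes of the lists around STAR and FDX1, with circles for IVM minus GV, squares for CNP_IVM minus GV and triangles for CNP_IVM minus IVM, and dotted lines at 2-fold. FDX1 lies near 0 in all 3, while STAR, CYB5R3, HSD17B8, ESR2, PAQR5, GFER, GLRX5, LIPT1 and LIPT2 lie beyond 2-fold lower in all 3.

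Both mitochondrial tasks that ferredoxins serve outside steroid synthesis were examined as lists. All 18 genes of iron-sulfur cluster assembly, a list that includes FDX2 and FDXR, passed the filter. Of these 0 were at least 2-fold higher and 13 lower in IVM than in GV (median -1.39), 0 and 14 in CNP_IVM than in GV (median -1.82), and 0 and 5 in CNP_IVM than in IVM (median -0.55). Over all genes 15.9%, 15.3% and 1.86% were higher and 33.0%, 42.0% and 14.8% lower, with medians of -0.28, -0.61 and -0.28. With trimmed-mean factors the counts of the list were 0 and 11, 1 and 12, and 0 and 1. Of all 11852 genes 2790 and 3316, 3121 and 3902, and 449 and 970 were then higher and lower. With quantile normalisation the list had 0 and 8, 1 and 11, and 0 and 0. All genes had 3132 and 2861, 3537 and 3187, and 463 and 704. The 5 genes of the list lower in CNP_IVM than in IVM became 3 without IVM replicate 9. LYRM4, which steadies the cysteine desulfurase at the start of assembly, averaged 81.5 CPM in GV (56.9 to 108), 7.19 CPM in IVM (1.30 to 14.1) and 3.28 CPM in CNP_IVM (1.92 to 4.15). GLRX5, which passes finished clusters on, averaged 216 CPM in GV (98.5 to 374), 56.7 CPM in IVM (27.6 to 81.9) and 22.2 CPM in CNP_IVM (14.3 to 33.6). For both, every matured oocyte lay below every GV oocyte. HSCB, a co-chaperone of the same route, averaged 102 CPM in GV, 128 CPM in IVM and 189 CPM in CNP_IVM.

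Protein lipoylation and lipoyl-bearing enzymes made a list of 12 genes, all of which passed the filter. Higher and lower by at least 2-fold were 2 and 4 in IVM against GV, 2 and 7 in CNP_IVM against GV, and 0 and 4 in CNP_IVM against IVM. Over all genes 15.9%, 15.3% and 1.86% were higher and 33.0%, 42.0% and 14.8% lower, so the first count of lower genes is that of the background. With trimmed-mean factors the counts of the list were 3 and 3, 2 and 6, and 0 and 2. With quantile normalisation they were 3 and 2, 2 and 3, and 0 and 2. The 2 higher in IVM became 1 without GV replicate 4 or 6 or IVM replicate 6, 8 or 10. LIPT2, which makes the first transfer of the lipoyl precursor, had the stepwise order of STAR: 113 to 235 CPM in GV, 27.9 to 89.8 CPM in IVM and 9.10 to 17.3 CPM in CNP_IVM, with no overlap and differences of -1.33, -3.38 and -2.05. LIAS, the lipoyl synthase that takes electrons from ferredoxin, averaged 87.6 ± 25.97, 62.2 ± 14.6 and 28.1 ± 14.6 CPM. DBT, a lipoyl-bearing subunit of branched-chain keto acid dehydrogenase, averaged 24.9 CPM in GV (18.8 to 33.9), 229 CPM in IVM (157 to 292) and 203 CPM in CNP_IVM (88.2 to 375), above GV in every matured oocyte.

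Genes with profiles most like STAR were found over all 22 oocytes by the root mean square difference of log2(CPM + 1), each gene centred on its mean. The nearest of 11852 were INTS10 (0.28), DEDD (0.33), TDP1 (0.34), FBXO15 (0.35) and HCCS (0.36), where the median gene was at 1.18. INTS10, a subunit of the Integrator complex, averaged 175 CPM in GV (139 to 219), 89.3 CPM in IVM (44.1 to 158) and 23.7 CPM in CNP_IVM (18.9 to 27.9). HCCS, which attaches heme to cytochrome c in mitochondria, averaged 33.9, 19.4 and 6.99 CPM. Genes of the lists that shared STAR's stepwise order with no overlap, among the 85 that had it, were HSD17B8, LIPT2, ZP3 and FIGLA. For FDX1 the nearest were LMNB1 (0.27), GMDS (0.29), CDC42BPG (0.29), PPP1R35 (0.29) and LYPD1 (0.32), with the median gene at 0.93. CDC42BPG averaged only 1.01, 0.81 and 1.29 CPM, with a lowest value of 0 in GV and IVM. At that level the added 1 CPM holds differences down. PPP1R35 averaged 238 CPM in GV (191 to 304), 254 CPM in IVM (131 to 323) and 282 CPM in CNP_IVM (175 to 452). All of these profiles share the same libraries and their depths.

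**Figure D5:**
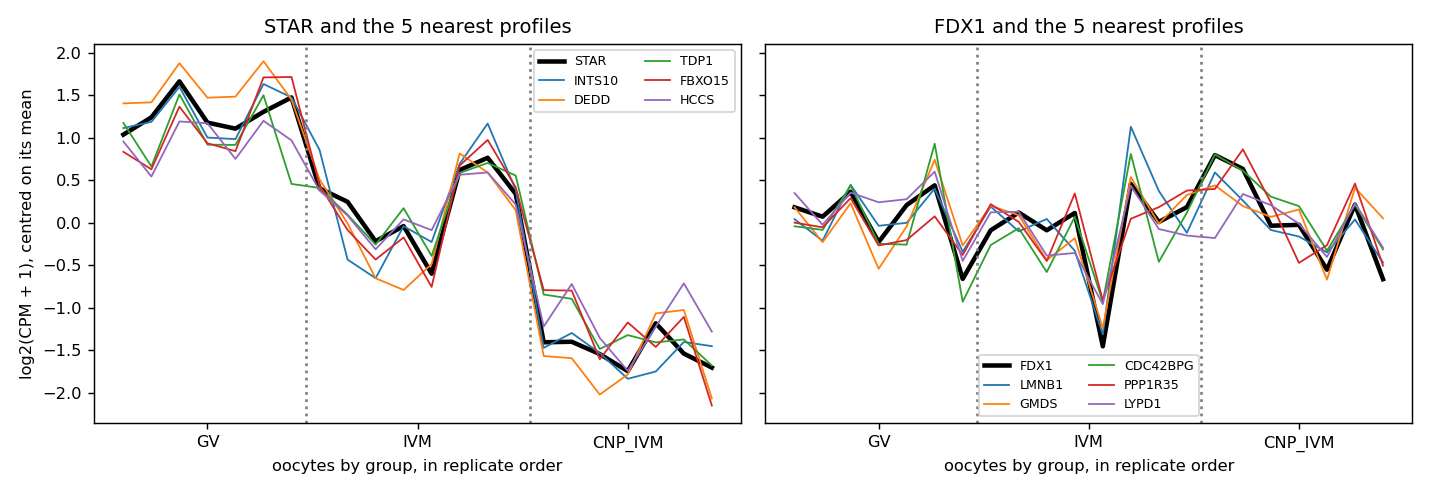
log2(CPM + 1) of STAR (left) and FDX1 (right) in black with the 5 nearest genes in colour, each centred on its mean over 22 oocytes, which are placed by group in replicate order. The STAR set steps down from GV to IVM to CNP_IVM, and the FDX1 set lies near 0 with its lowest point at IVM replicate 7.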

How the data were processed

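Single-oocyte libraries (SMART-Seq v4, Nextera XT, HiSeq X pairs, per the labels' protocols) were used: 22 of 29 labelled samples had a column, and 7 were not analysed here. Tools listed in the submitters' processing notes are edgeR, featureCounts 2.0.1, HISAT2 2.2.1, Trim Galore 0.6.7 and FastQC, with the mouse build GRCm39, though the gene names are cattle symbols; no coordinates are given. The values the authors deposited are CPM: within a library all are whole multiples of 1 read (100% within 0.01 read), which gave back whole reads and totals. Groups were taken from titles. Differences are log2 of group means, each plus 1 CPM; called means at least 2-fold. With no donor labelled, each group is 1 sample and no test was run, as planned. Members and lists were chosen with earlier results of these data known. Named genes were the members, fixed pathway genes, and up to 4 per list and comparison with at least 10 CPM in either group and the largest difference past 2-fold; which of these the text gives, and the other genes with values, among them those shown for GV replicate 9, were chosen after their values were seen. Alternatives were pseudocounts of 0.1 and 5 CPM, no filter, trimmed-mean factors, quantile normalisation, group medians and leaving out each oocyte. Steps were tested on simulated data. Python 3.11.15, numpy 2.4.6, pandas 2.3.3, scipy 1.17.1 and matplotlib 3.10.9 were used. Planned sequences are not shown.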

Additional observations from a re-analysis of the deposited data

Results flagged for a closer look

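Of 39 combinations of 13 genes and 3 groups, 12 held an oocyte far from the rest of its group by Dixon's criterion. For normally distributed values chance alone meets it in about 1 group in 20. It was applied here to CPM without logs, and several of the genes flagged were near 0 CPM. That rate need not hold for them, so the 12 cannot be set against it. FDX1 was low in IVM replicate 7 (104 CPM) and POR in GV replicate 2 (64.3 CPM). HSD3B1 (23.8 CPM) and FDX2 (548 CPM) were high in GV replicate 9. FDXR (1.47 CPM) and CYP11A1 (1.58 CPM) were high in IVM replicate 8, and NR5A1 (1.54 CPM) in IVM replicate 9. CYP11A1 (1.47 CPM) and FSHR (1.13 CPM) were high in GV replicate 6, CYP11A1 (1.18 CPM) and FSHR (0.36 CPM) in CNP_IVM replicate 4, and CYP19A1 (2.49 CPM) in CNP_IVM replicate 6. GV replicate 6 also had the highest levels of INHA (59.7 CPM) and FST (42.0 CPM) among GV oocytes.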

How the results depend on the processing

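Of 177 alternative values of the 9 member differences that could move (leaving out an oocyte only within its own comparisons), 167 moved by less than the SD between oocytes and 10 by more. For HSD3B1 a pseudocount of 0.1 CPM gave -3.07 (IVM against GV), -3.66 (CNP_IVM against GV) and -0.60 (CNP_IVM against IVM), 5 CPM gave -0.74 for CNP_IVM against GV, and group medians gave -0.27 and -0.59 against GV. Trimmed-mean factors gave -2.20 for STAR and 0.64 for FDX1 in CNP_IVM against GV. Leaving out 1 oocyte gave -1.97 to -0.0093 and -2.15 to -0.18 for HSD3B1 against GV, the ends nearest 0 being without GV replicate 9, and -1.14 to -0.96, -2.85 to -2.72 and -1.83 to -1.65 for STAR and -0.20 to 0.018, -0.098 to 0.15 and 0.0086 to 0.25 for FDX1 in the order of the text. Genes at least 2-fold higher and lower numbered 1880 and 3917 (IVM against GV), 1818 and 4977 (CNP_IVM against GV) and 220 and 1754 (CNP_IVM against IVM). For CNP_IVM against IVM they were 395 and 2793 with 0.1 CPM, 113 and 743 with 5 CPM, 449 and 970 with trimmed-mean factors, and 463 and 704 with quantile normalisation. For CNP_IVM against GV 3121 were higher with trimmed-mean factors, and 3537 higher and 3187 lower with quantile normalisation, which also gave 3132 higher for IVM against GV. The causes were not tested. No paired analysis was possible because no test was made and no label ties oocytes of the same number across groups. Depth limits HSD3B1, CYP11A1 and FDXR in the matured oocytes where they had 0 reads; their highest matured counts were 31, 62 and 58 reads.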
